A study of Homo sapiens with 12 samples.

Results

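FBXO32 and 9 genes of the FOXO pathway and of quiescence were followed across 2 related cell lines: the transcription factors FOXO1, FOXO3 and FOXO4, and TXNIP, PIK3IP1, CCNG2, BTG1, CITED2 and IRS2. The genes were taken by symbol and matched to Ensembl identifiers. All 10 were found among the 58302 genes of the count table, and all 10 had enough reads to be among the 18035 genes tested. The list was treated as chosen by the drug response seen in the sensitive cells, where FBXO32 had been noticed for its log2 fold change. Their values in that contrast, and in every contrast that uses its libraries, are therefore a description: they carry no p-value, and nothing is read from counts of calls there. The drug response in the resistant cells shares no library with that contrast, and it is the one tested for these genes. The list was drawn up with earlier results of these data known, so this test is not independent of the choice. The p-values of the resistant response also draw on an estimate of spread that all 12 libraries share.

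RNA was sequenced from a human cancer cell line in 4 groups of 3 libraries. All cells derive from NCI-H226, a mesothelioma line that is null for NF2, a tumour suppressor of the Hippo pathway, so this loss is common to every group. The drug, GNE-7883, is a small-molecule inhibitor of TEAD, the family of DNA-binding factors through which the coactivators YAP and TAZ act. The resistant cells, NCI-H226_CL3, are a single derived line that was grown under rising concentrations of a TEAD inhibitor, starting at 0.25 µM and ending at 3 µM. The groups were resistant cells in GNE-7883, resistant cells in the vehicle DMSO, sensitive NCI-H226 cells in GNE-7883, and sensitive NCI-H226 cells in DMSO. The labels name neither a dose nor a duration for the last incubation. They do not say that replicate libraries are separate cultures, and each p-value then reflects library-to-library spread that may be technical.

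FOXO factors are transcription factors that act in the nucleus when signalling from insulin and growth factor receptors through PI3K and AKT is low, and that are held in the cytoplasm once AKT phosphorylates them. In the nucleus they switch on genes that slow the cell cycle, resist stress and promote protein breakdown. Among these is FBXO32, also called atrogin-1, the F-box subunit of a ubiquitin ligase best known from wasting muscle. Other targets act back on the pathway, such as PIK3IP1, an inhibitor of PI3K, and IRS2, an adaptor between insulin or IGF receptors and PI3K. The phosphorylation and location of the FOXO proteins cannot be read from RNA levels.

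The promoters of TXNIP and BTG1 are shown because they were the windows of these genes that held the FOXO consensus. RefSeq windows on GRCh38.p14 were at hand for 9 of the 10 genes, all but FBXO32, as 16 windows. The 250 bases before each start were searched. The FOXO consensus TGTTTAC or its reverse complement GTAAACA stood in 2 of the 16 windows, against 1046 of all 35116 windows (2.98%). In 1 of the 2 TXNIP windows the reverse complement lay 118 to 124 bases before the start. In the only BTG1 window the consensus lay 203 to 209 bases before it. The stretches below run 5′ to 3′ on the minus strand with the match in capitals. They stop where the GENCODE gene begins, upstream of the RefSeq start, so the distances above are counted from a point beyond the printed end.
TXNIP, chr1:145996601-145996829: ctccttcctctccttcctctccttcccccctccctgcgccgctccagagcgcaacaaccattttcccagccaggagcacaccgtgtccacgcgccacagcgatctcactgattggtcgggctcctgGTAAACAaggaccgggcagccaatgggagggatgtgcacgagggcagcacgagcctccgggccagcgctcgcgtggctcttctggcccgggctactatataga
BTG1, chr12:92145898-92146096: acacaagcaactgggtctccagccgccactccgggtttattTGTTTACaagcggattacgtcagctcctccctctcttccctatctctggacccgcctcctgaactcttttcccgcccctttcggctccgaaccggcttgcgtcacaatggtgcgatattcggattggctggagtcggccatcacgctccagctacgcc
The E-box CACGTG, its own reverse complement, stood in the only CCNG2 window 25 to 30 bases before the start. It also stood in 1 of the 3 CITED2 windows 148 to 153 bases before the start, against 2228 of the 35116 windows. The TEAD core GGAATG or its reverse complement CATTCC was in 0 of the 16 windows, against 4175 of the 35116 (11.9%). None of the motifs overlapped another in these windows. A match of letters is a description of the window and does not show binding.

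Total counts per library ranged between 31878934 and 46962645. The levels below are CPM, counts scaled to the TMM-corrected library size, which compare a gene across groups. Levels of different genes are compared by the deposited RPKM, which divides by gene length. Fold changes are log2 values ± the standard error (SE), fitted with edgeR over all tested genes. A gene was called when its Benjamini-Hochberg adjusted p was under 0.05. In bulk RNA, a different level per cell and a different share of expressing cells cannot be told apart.

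The cells carried all 12 listed mesothelial markers in every group. Their summed level lay between 5932 and 6729 CPM in resistant cells in GNE-7883, between 5219 and 6185 CPM in resistant cells in DMSO, between 9270 and 9551 CPM in sensitive cells in GNE-7883, and between 11300 and 13410 CPM in sensitive cells in DMSO. Of the muscle markers, MYOD1 and MYF5, the factors that commit cells to muscle, were at 0 in every library, and 9 of 12 stayed under 0.5 CPM. TNNT1, in contrast, had 134 to 162 CPM in resistant cells in GNE-7883 and 124 to 152 CPM in resistant cells in DMSO. It had 124 to 126 CPM in sensitive cells in GNE-7883 and 118 to 145 CPM in sensitive cells in DMSO. DES reached 2.07 CPM and ACTA1 0.738 CPM, both in sensitive cells in DMSO. Of the blood markers, CD3E, MS4A1 and CD68 were at 0 and 8 of 12 stayed under 0.5 CPM. Their summed level was 22.2 to 22.8 CPM in sensitive cells in GNE-7883 and 8.38 to 9.14 CPM in sensitive cells in DMSO. Of the endothelial markers EMCN was at 0 and 4 of 8 stayed under 0.5 CPM, with a summed level of 199 to 214 CPM in sensitive cells in GNE-7883 and 87.1 to 97.2 CPM in sensitive cells in DMSO. The mitochondrial share of the counts was 0.954% to 1.09% in sensitive cells in GNE-7883 and 0.522% to 0.622% in sensitive cells in DMSO, while it was 0.614% to 0.693% in resistant cells in GNE-7883 and 0.561% to 0.685% in resistant cells in DMSO. The endothelial sum was mostly KDR, with 177 to 194 CPM in sensitive cells in GNE-7883 against 46.2 to 59.3 CPM in sensitive cells in DMSO, while TIE1 had 17.4 to 19.0 CPM against 33.3 to 37.7 CPM. The blood sum was mostly ITGAM, with 15.6 to 15.7 CPM in sensitive cells in GNE-7883 against 5.40 to 6.43 CPM in sensitive cells in DMSO, and CD14. In the sensitive line the blood and endothelial sums and the mitochondrial share were higher under the drug and the mesothelial sum was lower, with no overlap of the ranges. The mesothelial markers went both ways there: 6 of 12 rose and 5 fell, beside 29.8% and 28.4% of all genes. KRT18 had 1725 to 1885 CPM in GNE-7883 against 3619 to 4414 CPM in DMSO, and KRT8 1141 to 1295 CPM against 2329 to 2995 CPM. CALB2 had 1661 to 1685 CPM in GNE-7883 against 1063 to 1245 CPM in DMSO. The part of these marker and mitochondrial levels in the values below was not tested. Of the alveolar and airway markers 5 of 8 stayed under 0.5 CPM in every group. Replicate 2 of the sensitive DMSO group stood farthest from its group, with an SD of log2 deviations of 0.252 where the other 11 libraries had 0.177 to 0.209.

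FBXO32 was nearly equal in the 2 lines without drug and much higher under GNE-7883 in the sensitive line than in the resistant one. It had 62.7, 63.8 and 64.5 CPM in resistant cells in GNE-7883, against 27.1, 29.1 and 27.2 CPM in resistant cells in DMSO. It had 282, 298 and 287 CPM in sensitive cells in GNE-7883, against 27.5, 25.0 and 28.9 CPM in sensitive cells in DMSO. The drug and vehicle groups did not overlap in either line, and the DMSO groups of the 2 lines did. In resistant cells FBXO32 rose 2.28-fold, a log2 fold change of 1.19 ± 0.061 (edgeR adjusted p = 1.29e-08, n = 3 each, higher in 3 of 3 libraries). This was rank 141 from the top among the 18035 tested genes. In sensitive cells the level was 10.7-fold that in DMSO, a log2 fold change of 3.42 ± 0.064 and rank 30 from the top. In DMSO the resistant line differed from the sensitive line by 0.04 ± 0.061, with a 95% interval of -0.09 to 0.17. Under the drug the resistant line stood 4.54-fold below the sensitive line, a log2 fold change of -2.18 ± 0.060.

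**Figure D1:**
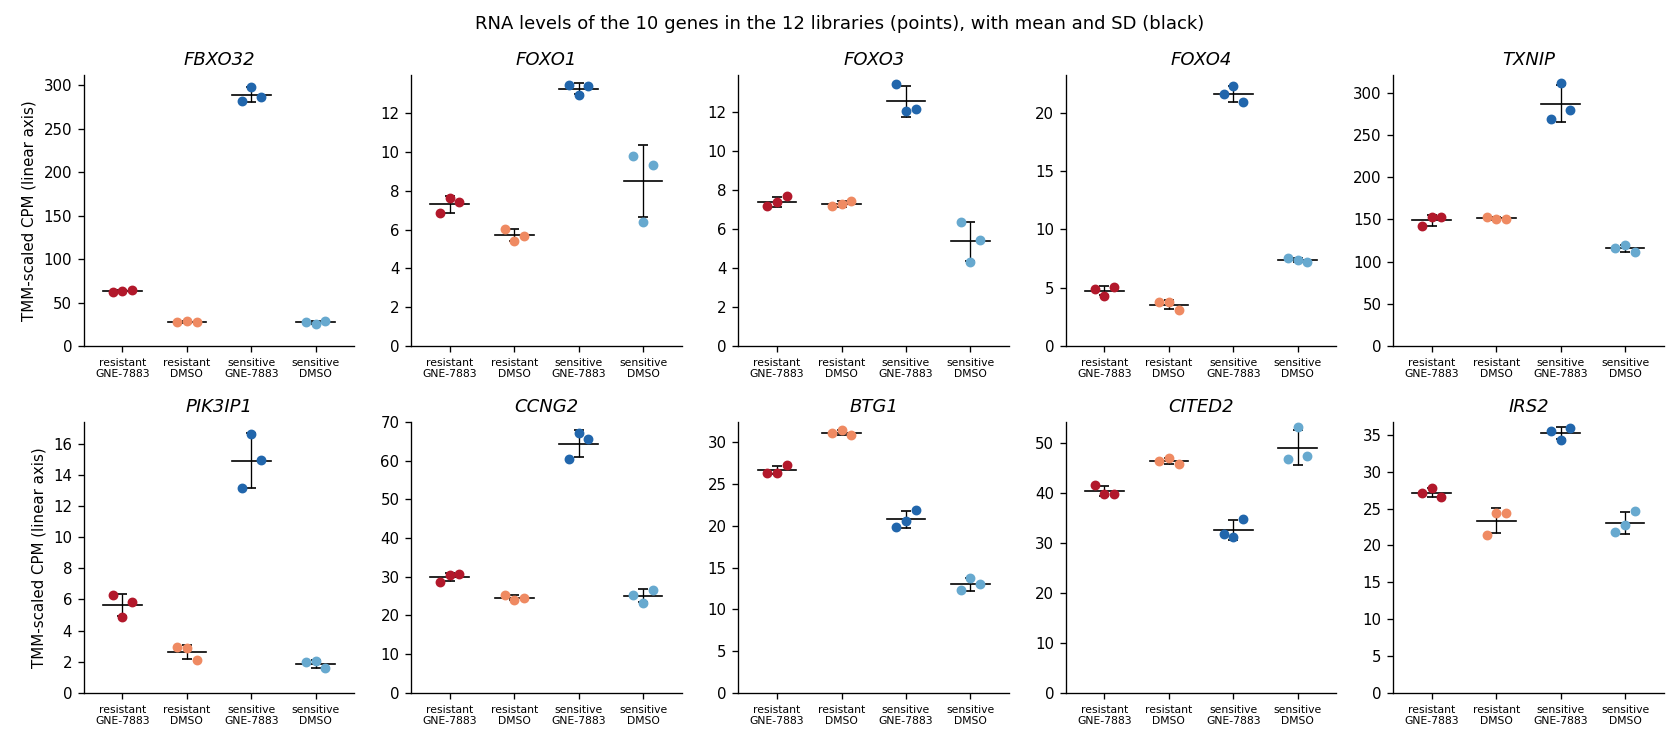
Level of each of the 10 genes in TMM-scaled CPM (vertical, linear, from 0, a scale of its own per gene) in the 12 libraries. Points are libraries, black lines the mean and SD of 3 libraries, and groups run from resistant GNE-7883 and resistant DMSO to sensitive GNE-7883 and sensitive DMSO. FBXO32 averaged 289 CPM in sensitive cells in GNE-7883 and stayed below 65 CPM in the other groups.

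All 3 FOXO factors were higher under the drug in sensitive cells, where 29.8% of all genes were called upward. In resistant cells FOXO4 was called and FOXO1 and FOXO3 were not, beside 9.22% of all genes called. Nothing is read from these counts, and the log2 fold changes of FOXO4 and FOXO1 there were close, at 0.41 ± 0.098 and 0.35 ± 0.13. FOXO4, which is regulated by AKT like its relatives, had 4.89, 4.31 and 5.05 CPM in resistant cells in GNE-7883, against 3.73, 3.79 and 3.13 CPM in resistant cells in DMSO. In the sensitive line it had 21.6, 22.3 and 20.9 CPM in GNE-7883, against 7.56, 7.35 and 7.20 CPM in DMSO. Neither pair of groups overlapped, and the resistant line was the lower one in both media. In resistant cells FOXO4 rose by a log2 fold change of 0.41 ± 0.098 (edgeR adjusted p = 0.0156). That call was lost without replicate 3 of resistant DMSO (adjusted p = 0.0649), replicate 1 of resistant GNE-7883 (0.0526) or replicate 3 of resistant GNE-7883 (0.0645). In sensitive cells the log2 fold change was 1.55 ± 0.083. Between the lines it was -1.04 ± 0.094 in DMSO and -2.18 ± 0.087 in GNE-7883.

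FOXO3, which in many cell types holds back division, had 7.17, 7.37 and 7.67 CPM in resistant cells in GNE-7883, against 7.15, 7.28 and 7.46 CPM in resistant cells in DMSO. These groups overlapped. The log2 fold change in resistant cells was 0.02 ± 0.11 with a 95% interval of -0.21 to 0.25 (edgeR adjusted p = 0.946). Sensitive cells had FOXO3 at 13.4, 12.1 and 12.1 CPM in GNE-7883, against 6.34, 4.33 and 5.42 CPM in DMSO, with no overlap and a log2 fold change of 1.22 ± 0.11. In DMSO the resistant line was the higher one, by 0.44 ± 0.11, while in GNE-7883 it was the lower one, at -0.76 ± 0.11.

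FOXO1, the FOXO factor best known for the insulin response of liver, had 6.83, 7.64 and 7.42 CPM in resistant cells in GNE-7883, against 6.03, 5.43 and 5.68 CPM in resistant cells in DMSO. The groups did not overlap, and the log2 fold change of 0.35 ± 0.13 did not pass the threshold (edgeR adjusted p = 0.108). Sensitive cells had 13.5, 12.9 and 13.4 CPM in GNE-7883, against 9.79, 6.38 and 9.31 CPM in DMSO, a log2 fold change of 0.65 ± 0.12. Replicate 2 of sensitive DMSO was the low library for both FOXO1 and FOXO3. Without that library FOXO1 was called in resistant cells (edgeR adjusted p = 0.00523), as the spread is shared over all groups. By RPKM FOXO1 and FOXO3 were among the 3 scarcest of the 10 genes in every group. Group means by RPKM lay between 1.02 and 2.25 for FOXO1, between 0.676 and 1.58 for FOXO3, and between 1.10 and 6.36 for FOXO4.

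The members that act on PI3K differed in size of response. PIK3IP1, the PI3K inhibitor, had 6.27, 4.89 and 5.81 CPM in resistant cells in GNE-7883, against 2.96, 2.86 and 2.12 CPM in resistant cells in DMSO. In the sensitive line it had 13.1, 16.6 and 14.9 CPM in GNE-7883, against 1.98, 2.02 and 1.59 CPM in DMSO. Every drug library was above every DMSO library of its line. In resistant cells PIK3IP1 rose 2.12-fold, a log2 fold change of 1.08 ± 0.14 (edgeR adjusted p = 0.000169). In sensitive cells it was 7.95-fold higher, a log2 fold change of 2.99 ± 0.14 and rank 60 from the top. Its counts were small in DMSO, at 58 to 86 reads per sensitive library and 69 to 132 per resistant library. The resistant line was higher by 0.51 ± 0.17 in DMSO and lower in GNE-7883, at -1.40 ± 0.12.

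IRS2 moved less. It had 27.1, 27.8 and 26.6 CPM in resistant cells in GNE-7883, against 21.4, 24.4 and 24.4 CPM in resistant cells in DMSO. The groups did not overlap, but the log2 fold change of 0.22 ± 0.069 did not pass the threshold (edgeR adjusted p = 0.0612). Sensitive cells had 35.5, 34.4 and 35.9 CPM in GNE-7883, against 21.8, 22.7 and 24.7 CPM in DMSO, a log2 fold change of 0.61 ± 0.069. The 2 lines overlapped in DMSO, with a log2 fold change of 0.02 ± 0.069.

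TXNIP and CCNG2 stood for the metabolic and cell cycle arms. TXNIP binds and inhibits thioredoxin and lowers glucose uptake, and it was the most abundant of the 10 genes by RPKM in every group, at 47.6 ± 2.37 in resistant cells in GNE-7883, 48.2 ± 0.757 in resistant cells in DMSO, 86.8 ± 6.64 in sensitive cells in GNE-7883 and 35.1 ± 1.44 in sensitive cells in DMSO (SD, n = 3 each). It had 142, 153 and 152 CPM in resistant cells in GNE-7883, against 153, 150 and 150 CPM in resistant cells in DMSO. These groups overlapped, with a log2 fold change of -0.02 ± 0.060 and a 95% interval of -0.15 to 0.11 (edgeR adjusted p = 0.895). Sensitive cells had 269, 311 and 280 CPM in GNE-7883, against 116, 120 and 112 CPM in DMSO, a log2 fold change of 1.31 ± 0.060. The resistant line was thus above the sensitive line in DMSO, at 0.38 ± 0.060, and below it in GNE-7883, at -0.94 ± 0.060.

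CCNG2 encodes cyclin G2, an unusual cyclin that accompanies cell cycle arrest. It had 28.6, 30.3 and 30.7 CPM in resistant cells in GNE-7883, against 25.3, 23.9 and 24.6 CPM in resistant cells in DMSO, and these groups did not overlap. It rose there by a log2 fold change of 0.28 ± 0.066 (edgeR adjusted p = 0.0142), a call that was lost without replicate 3 of resistant GNE-7883 (adjusted p = 0.0662). Its level in sensitive cells was 60.5, 67.1 and 65.5 CPM in GNE-7883, against 25.3, 23.2 and 26.6 CPM in DMSO, a log2 fold change of 1.36 ± 0.066. In DMSO the lines overlapped, with a difference of -0.02 ± 0.067.

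Unlike FBXO32, BTG1 was lower under the drug in resistant cells, and CITED2 was lower under it in both lines. BTG1 is an antiproliferative protein that is abundant in resting cells. It had 26.4, 26.4 and 27.2 CPM in resistant cells in GNE-7883, against 31.1, 31.5 and 30.8 CPM in resistant cells in DMSO, with no overlap. It fell by 0.23 on the log2 scale (SE 0.062, edgeR adjusted p = 0.0337), and that call was lost when any 1 of the 6 resistant libraries was left out (adjusted p between 0.0851 and 0.125). In the sensitive line it had 19.8, 20.6 and 21.9 CPM in GNE-7883, against 12.3, 13.8 and 13.0 CPM in DMSO, a log2 fold change of 0.68 ± 0.066 in the other direction. Of the 10 genes, BTG1 had the highest resistant over sensitive log2 fold change in both media, 1.26 ± 0.065 in DMSO and 0.36 ± 0.064 in GNE-7883.

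CITED2, a transcriptional coregulator that competes for CBP and p300, was the only one of the 10 that was lower under the drug in sensitive cells. There it had 31.7, 31.2 and 34.8 CPM in GNE-7883, against 46.7, 53.1 and 47.3 CPM in DMSO, a log2 fold change of -0.59 ± 0.064. In resistant cells it had 41.5, 39.8 and 39.7 CPM in GNE-7883, against 46.4, 46.9 and 45.8 CPM in DMSO. Those groups did not overlap either, and the log2 fold change of -0.20 ± 0.064 did not pass the threshold (edgeR adjusted p = 0.0636). In DMSO the lines overlapped, with a difference of -0.08 ± 0.063. By RPKM CITED2 was the second most abundant of the 10 in 3 of the groups and the third in sensitive cells in GNE-7883, where FBXO32 stood second at 41.7 ± 1.21 (SD, n = 3).

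In the resistant cells 4 of the 10 genes rose (FBXO32, PIK3IP1, FOXO4 and CCNG2), BTG1 fell and 5 were not called. Of all tested genes 9.22% were called in this contrast, 5.25% upward and 3.97% downward. The 10 genes were chosen with earlier results of these data known, so nothing is read from their share. The median log2 fold change of the 10 was 0.25, against -0.00 over all tested genes. The count was 2 without replicate 3 of resistant GNE-7883, 3 without replicate 1 of resistant GNE-7883, 3 without replicate 3 of resistant DMSO and 8 without replicate 2 of sensitive DMSO. FBXO32 and PIK3IP1 were called under all 19 alternative settings.

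In the sensitive cells all 10 genes passed the threshold, 9 higher and 1 lower, where 58.1% of all genes did, 29.8% upward and 28.4% downward. Their median log2 fold change was 1.27, against 0.02 over all tested genes. Between the lines in DMSO 4 of the 10 were called higher in resistant cells and 2 lower, where 48.7% of all genes were called, 24.2% higher and 24.4% lower. Their median there was 0.03. Between the lines in GNE-7883 2 were called higher in resistant cells and 8 lower, where 61.9% of all genes were called, 30.7% higher and 31.1% lower, and the median was -0.90. These counts come from the libraries that led to the choice of FBXO32, and nothing is read from them.

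**Figure D2:**
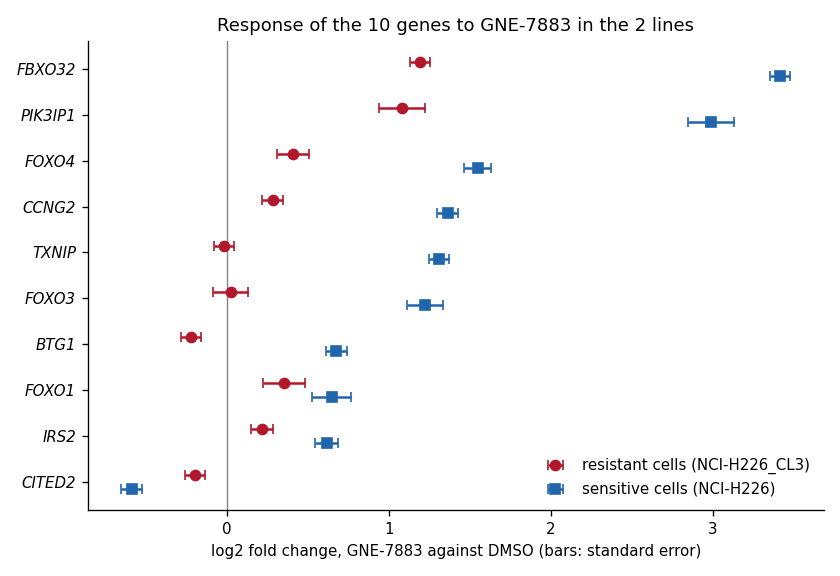
Log2 fold change (horizontal) of each of the 10 genes in GNE-7883 against DMSO, with circles for resistant cells, squares for sensitive cells and bars for the SE. The resistant response of FBXO32 is 1.19 and the sensitive one 3.42; BTG1 lies on opposite sides of 0 in the 2 lines.

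The difference of the drug responses, resistant minus sensitive, was -2.22 ± 0.085 for FBXO32, -1.91 ± 0.21 for PIK3IP1 and -1.33 ± 0.085 for TXNIP. It was -1.20 ± 0.16 for FOXO3, -1.14 ± 0.13 for FOXO4 and -1.08 ± 0.093 for CCNG2. For BTG1 it was -0.90 ± 0.091, for IRS2 -0.40 ± 0.097, for FOXO1 -0.29 ± 0.18 and for CITED2 0.39 ± 0.090. In this contrast 1 of the 10 was called upward (CITED2), 8 downward and FOXO1 not, where 35.7% of all genes were called, 19.0% upward and 16.7% downward. The median was -1.11, against -0.01 over all tested genes, and since the sensitive libraries enter it the same caution holds.

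**Figure D3:**
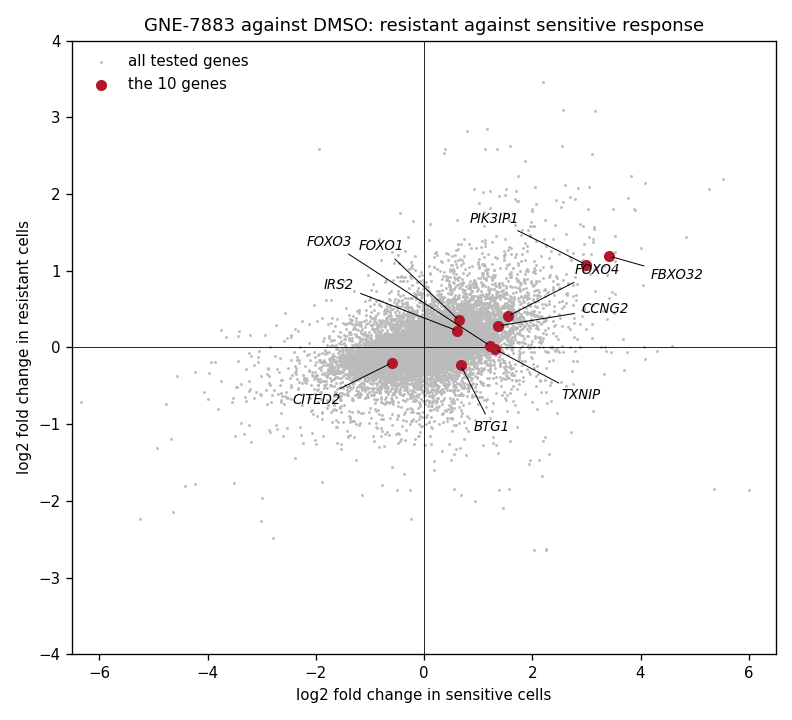
Log2 fold change in GNE-7883 against DMSO of every tested gene, in resistant cells (vertical) and sensitive cells (horizontal), with the 10 genes in red and named; 18030 genes are drawn and 5 lie outside the axes. FBXO32 and PIK3IP1 lie far right and above 1 on the vertical axis, and TXNIP and FOXO3 lie right of 1 and near 0 on it.

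Other genes described as FOXO targets moved in both directions. Of 36 listed, 29 could be tested. SOD2 was left out because its symbol matched no identifier, so nothing is said of its level. Those too low to test included PDK4, PCK1, G6PC1, IGFBP1 and TRIM63, which encodes MuRF1, the ubiquitin ligase named beside FBXO32 in muscle wasting. In sensitive cells 18 rose and 7 fell, beside 29.8% and 28.4% of all genes, with a median log2 fold change of 0.38. SESN3, a stress-induced regulator of mTORC1 and AKT, rose by 2.26 ± 0.14, and BCL2L11, which encodes the death protein BIM, by 2.11 ± 0.11. ERBB3, a receptor that FOXO factors induce when AKT is blocked, fell by 2.52 on the log2 scale (SE 0.074), and the cytokine receptor IL7R fell by 1.66 (SE 0.091). GADD45A and SESN2, both stress-response genes, fell by 1.01 (SE 0.065) and 0.32 (SE 0.062).

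In resistant cells 3 of these 29 targets rose, 4 fell and 22 were not called, with a median of 0.03. Of all genes 5.25% rose and 3.97% fell. Over the 19 alternatives the target counts ranged between 1 and 9 upward and between 2 and 5 downward. GADD45A fell by 0.52 (SE 0.063, edgeR adjusted p = 6.86e-05) and SESN2 by 0.47 (SE 0.061, edgeR adjusted p = 0.000147). S1PR1, which encodes a sphingosine phosphate receptor, fell by 0.27 (SE 0.065, edgeR adjusted p = 0.0146), a call lost without replicate 1 or 3 of resistant DMSO or replicate 2 or 3 of resistant GNE-7883 (adjusted p up to 0.106). KLF2, a factor of lymphocyte and endothelial quiescence, rose by 0.27 (SE 0.082, edgeR adjusted p = 0.048), a call lost in 12 of the 19 alternatives, among them leaving out any 1 of the resistant GNE-7883 libraries (adjusted p up to 0.141). SESN3 and BCL2L11 had log2 fold changes of 0.36 ± 0.13 and 0.01 ± 0.13 and were not called. The response differed between the lines, resistant minus sensitive, by -2.10 ± 0.17 for BCL2L11, -1.90 ± 0.19 for SESN3, 2.26 ± 0.10 for ERBB3 and 1.55 ± 0.13 for IL7R. In that difference 6 of the 29 were called upward and 14 downward, beside 19.0% and 16.7% of all genes.

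**Figure D4:**
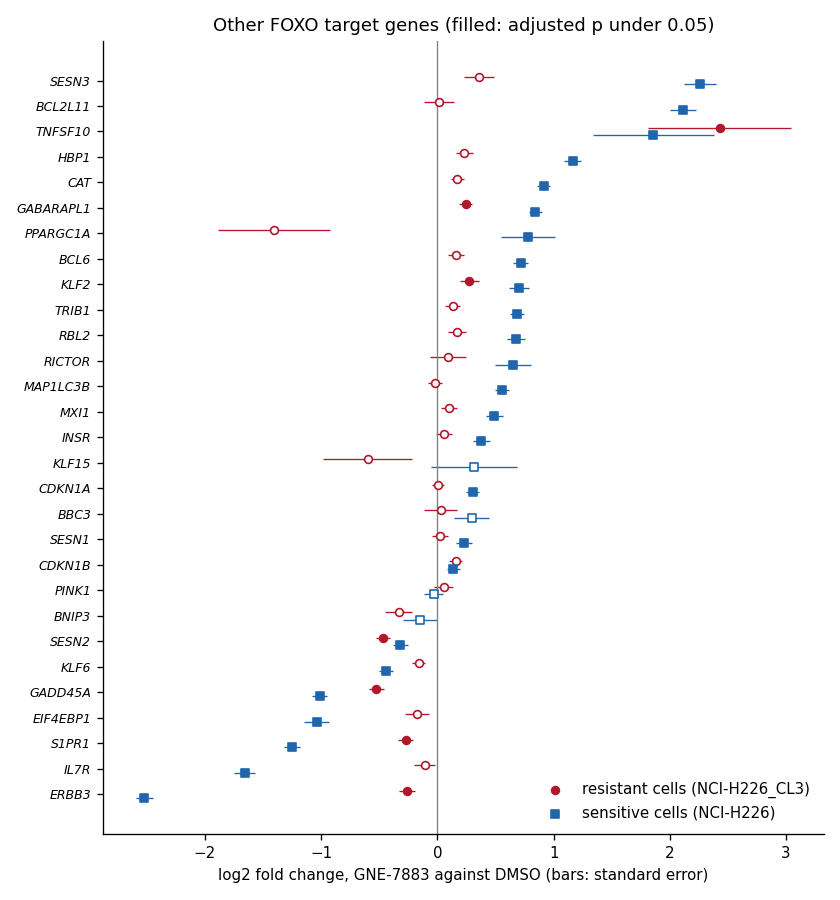
Log2 fold change (horizontal) in GNE-7883 against DMSO of the 29 other FOXO target genes tested, with circles for resistant cells, squares for sensitive cells and bars for the SE. Filled symbols have an adjusted p under 0.05; 25 of the 29 are filled for sensitive cells and 7 for resistant cells.

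Between the lines in DMSO 12 of the 29 targets were higher in resistant cells and 9 lower, beside 24.2% and 24.4% of all genes. BNIP3, a mitophagy receptor, was higher by 1.24 ± 0.13 and SESN3 by 1.20 ± 0.14, while ERBB3 stood at -1.19 ± 0.070 and the autophagy gene GABARAPL1 at -1.08 ± 0.054. In GNE-7883 10 were higher in resistant cells and 12 lower, led by BCL2L11 at -2.86 ± 0.12 and S1PR1 at 1.96 ± 0.071. Of all genes 30.7% were higher and 31.1% lower.

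Genes that carry the PI3K and AKT signal were called in both directions. Of 36 tested, 12 rose and 10 fell in sensitive cells, close to the 29.8% and 28.4% of all genes, with PIK3R3, a regulatory subunit of PI3K, at 1.17 ± 0.12, the AKT phosphatase PHLPP1 at -0.92 ± 0.080 and IRS1, the relative of IRS2, at -0.81 ± 0.14. In resistant cells 2 rose and 1 fell, against 1 to 3 and 1 to 2 over the 19 alternatives. Of all genes 5.25% rose and 3.97% fell there. The AKT-related kinase SGK1 fell by 0.27 (SE 0.049, edgeR adjusted p = 0.00257). Between the lines in DMSO 11 were higher in resistant cells and 11 lower, with the receptor IGF1R at -2.51 ± 0.098 and PHLPP1 at -1.59 ± 0.082. Of all genes 24.2% were higher and 24.4% lower. IGF1R averaged 88.9 ± 1.38 CPM in resistant cells in GNE-7883, 83.8 ± 4.66 CPM in resistant cells in DMSO, 593 ± 51.3 CPM in sensitive cells in GNE-7883 and 478 ± 75.4 CPM in sensitive cells in DMSO (SD, n = 3 each).

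Of 30 enzymes and binding partners that modify FOXO proteins, 7 rose and 15 fell in sensitive cells, beside 29.8% and 28.4% of all genes. TRIB2, a pseudokinase that restrains FOXO3, rose by 1.70 ± 0.11, and SKP2, which targets FOXO1 for breakdown, fell by 1.69 (SE 0.065). SFN, which encodes a 14-3-3 protein, fell by 1.82 (SE 0.096), and CDK2 fell by 1.43 (SE 0.049). In resistant cells 1 rose and 3 fell, against 0 to 2 and 0 to 8 over the 19 alternatives. Of all genes 5.25% rose and 3.97% fell there. TRIB2 rose there by 0.45 ± 0.11 (edgeR adjusted p = 0.0159), a call lost without replicate 1 of resistant DMSO or of resistant GNE-7883 (adjusted p up to 0.074). Of the 8 core subunits and enzymes of the SCF ubiquitin ligase that FBXO32 joins, 5 fell in sensitive cells and 3 were not called. Of all genes 28.4% fell there. Over the 19 alternatives 3 to 5 of the 8 fell and 0 or 1 rose. The largest falls of the 8 were those of NEDD8, by 0.52 (SE 0.072), and RBX1, by 0.41 (SE 0.078). In resistant cells edgeR called 0 of the 8, beside 9.22% of all genes, and DESeq2 called 0, with 0 at an unadjusted edgeR p under 0.05.

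Of 15 close relatives of the 10 genes tested, 8 rose and 3 fell in sensitive cells, beside 29.8% and 28.4% of all genes. FBXO25, the nearest F-box relative of FBXO32, stood at 0.96 ± 0.059. The TXNIP relatives ARRDC2 and ARRDC4 stood at 0.93 ± 0.078 and 0.92 ± 0.073. In resistant cells 2 of the 15 were called, both upward (1 or 2 over the alternatives), beside 5.25% of all genes upward. ARRDC2 rose there by 0.36 ± 0.079 (edgeR adjusted p = 0.0082). TXNIP and ARRDC4 are known targets of the glucose sensor MondoA. Among 10 genes of the MondoA and thioredoxin systems, 3 rose and 4 fell in sensitive cells, beside 29.8% and 28.4% of all genes. The hexokinase HK2 stood at 1.50 ± 0.075 and the glucose transporter SLC2A1 at -1.34 ± 0.058. In resistant cells 3 were called, all downward (1 to 4 over the alternatives), beside 3.97% of all genes downward. SLC2A1 fell there by 0.27 (SE 0.054, edgeR adjusted p = 0.00571). HK2 fell by 0.32 (SE 0.075, edgeR adjusted p = 0.0127), a call lost without replicate 2 or 3 of resistant DMSO or any 1 of the resistant GNE-7883 libraries (adjusted p up to 0.0746).

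The cell cycle genes moved with the drug in sensitive cells. All 18 listed proliferation genes fell there, beside 28.4% of all genes. They were led by CDC20 with a fall of 1.77 (SE 0.079), AURKB with 1.65 (SE 0.083) and CCNA2 with 1.55 (SE 0.053). In resistant cells 4 of the 18 were called, all downward (1 to 8 over the alternatives), beside 3.97% of all genes downward. AURKA fell there by 0.28 (SE 0.054, edgeR adjusted p = 0.00337). Of 18 regulators of the DREAM complex and of quiescence, 6 rose and 7 fell in sensitive cells. Of all genes 29.8% rose and 28.4% fell there. MYBL2 stood at -1.76 ± 0.078 and the CDK inhibitor gene CDKN1C at 0.83 ± 0.14. In resistant cells 1 of the 18 was called, beside 9.22% of all genes, with 0 to 4 called over the alternatives. It was CDKN1C, which rose by 0.70 ± 0.17 (edgeR adjusted p = 0.0163). That call was lost without replicate 1 of resistant DMSO or replicate 1 or 2 of resistant GNE-7883 (adjusted p up to 0.0642). CDKN1C was scarce, at 2.79 ± 0.51 CPM in resistant cells in GNE-7883 and 1.74 ± 0.042 CPM in resistant cells in DMSO (SD, n = 3 each). Division itself was not measured here, and the part of any change in it in the values of the 10 genes was not tested.

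By the shape of their levels over the 4 groups, the genes closest to FBXO32 outside the list were MAN1A1, TRPS1, ITGA1, MSC and PCDHGB7. The measure was the root mean square difference of log2 mean CPM over the 4 groups after centring each gene, among 11419 genes that reached a group mean of 5 CPM. It was 0.297 for MAN1A1, 0.320 for TRPS1, 0.368 for ITGA1, 0.437 for MSC and 0.445 for PCDHGB7. MAN1A1, an enzyme of glycan trimming, averaged 18.9 ± 1.31 CPM in resistant cells in GNE-7883, 11.3 ± 0.138 CPM in resistant cells in DMSO, 66.6 ± 4.60 CPM in sensitive cells in GNE-7883 and 7.49 ± 1.26 CPM in sensitive cells in DMSO (SD, n = 3 each). Of the 10 genes PIK3IP1 was nearest to FBXO32 at 0.348 and FOXO4 next at 0.764, and CITED2 was farthest at 1.61. TRPS1 reached 5 CPM in sensitive cells in GNE-7883 only, at 5.71 ± 0.56 CPM (SD, n = 3). The sensitive libraries that led to the choice of FBXO32 enter the measure, and it is a description of the group means.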

How the data were processed

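Per the labels' protocols, RNA libraries were made with the TruSeq RNA v2 kit, an unstranded kit, and read from 1 end over 50 bases. The authors deposited raw counts per Ensembl gene and RPKM values per gene, 1 column per library. The submitters' processing notes name GSNAP, limma and GRCh38.p10. No counter, annotation or strand setting is given in the sources used here, so reads of overlapping antisense genes cannot be told apart. The deposited RPKM values divide the count by gene length and by library total, with no TMM scaling.

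Counts were fitted with edgeR 4.0.16 (R 4.3.3): genes kept by filterByExpr, TMM scaling, a mean for each of 4 groups fitted to the 12 libraries together (8 residual degrees of freedom) and the quasi-likelihood test, with Benjamini-Hochberg adjustment within each of 5 contrasts. SEs came from the F statistic. DESeq2 1.42.0 size factors, its Wald test, limma 3.58.1 on log2 RPKM with a pseudocount of 0.1 or 1, 2 other filters, a replicate block and leaving out each library were the alternatives. The pipeline was tested on simulated data. The members and the gene lists were chosen with earlier results of these data known. Beside the members, the genes named by rule are up to 4 called genes per list and contrast with the largest absolute change and at least 5 CPM in a compared group, and the 5 genes most like FBXO32; GADD45A and SESN2 in sensitive cells, SESN3 and BCL2L11 in resistant cells and CDKN1C in resistant cells were named after their values were seen. Replicate numbers did not pair the libraries. FBXO32 is not in the promoter table used. Some genes that the rule would name are not reported here.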

Additional observations from a re-analysis of the deposited data

Results flagged for a closer look

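The edgeR interaction of line and drug, the test of the difference itself, was called for 9 of the 10 genes, beside 35.7% of all genes. Nothing is read from this count. The sensitive response, by which the list was treated as chosen, is subtracted in each value. A choice by that response favours a difference, so the values are a description only. The differences below are log2 drug responses, resistant minus sensitive, ± SE. For FBXO32 the difference was -2.22 ± 0.085, the resistant response being 1.19 and the sensitive one 3.42. For PIK3IP1 it was -1.91 ± 0.21, with responses of 1.08 and 2.99. TXNIP differed by -1.33 ± 0.085, FOXO3 by -1.20 ± 0.16, FOXO4 by -1.14 ± 0.13 and CCNG2 by -1.08 ± 0.093. BTG1 differed by -0.90 ± 0.091, with a resistant response of -0.23 and a sensitive one of 0.68. IRS2 differed by -0.40 ± 0.097 and CITED2 by 0.39 ± 0.090.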

How the results depend on the processing

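Each value was recomputed under 19 alternatives. Of the member fold changes under alternatives, 917 kept direction and side of the threshold, 16 lost the call, 8 gained it and 9 changed sign. In resistant cells the number of genes called was 1663 and ranged between 892 and 3073 when 1 library was left out: 893 and 962 without replicates 1 and 3 of resistant DMSO, 999 and 892 without replicates 1 and 3 of resistant GNE-7883, and 3073 without replicate 2 of sensitive DMSO. The count of the 10 genes called there, 5, ranged between 2 and 8. The sign changes were all of values near 0. In resistant cells TXNIP was positive without replicate 1 of resistant DMSO or of resistant GNE-7883 and ranged between -0.030 and 0.032 when 1 library was left out. Between the lines in DMSO, FBXO32 was negative without replicate 2 of sensitive DMSO (range -0.014 to 0.086). CCNG2 there was 0.049 and 0.040 on RPKM with pseudocounts of 0.1 and 1, and positive without replicate 3 of sensitive DMSO (range -0.076 to 0.020). IRS2 there was negative without replicate 2 or 3 of resistant DMSO or replicate 1 of sensitive DMSO (range -0.019 to 0.078). The cause was not tested. FOXO1 was also called in resistant cells with no filter (adjusted p = 0.03), CITED2 with DESeq2 (0.0344) and a filter of 5 CPM (0.0478), and IRS2 with DESeq2 (0.0295) and that filter (0.0325). Without replicate 2 of sensitive DMSO, CITED2 (0.00836) and IRS2 (0.0219) were called too. BTG1 lost its call in resistant cells on RPKM with a pseudocount of 0.1 (0.0602) and with no filter (0.148). On RPKM with a pseudocount of 1, which has no TMM scaling, 5211 genes were higher and 3441 lower in resistant cells in DMSO, against 4367 and 4408 on the main scale. Of the counts of called genes in the other lists, 107 moved by over 1.5 times and 1128 did not.

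Replicate numbers did not pair the libraries: 1 of 18 same-number correlations of deviations was over 0.1 (range -0.119 to 0.18), and 1 of 12 libraries correlated best with its own number. With the replicate number as a block, 1372 genes were called in resistant cells, 10305 in sensitive cells, 8594 between the lines in DMSO, 11050 between them in GNE-7883 and 6211 for the difference of responses; BTG1 in resistant cells had an adjusted p of 0.0532. The smallest count of any of the 10 genes in a library was 58 reads, for PIK3IP1 in sensitive DMSO.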
